A study of Mus musculus with 6 samples.

Results

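Aminoacyl-tRNA synthetases were followed in 2 mouse pre-iPSC lines through 36 genes, 20 for enzymes of the cytosol and 16 for enzymes of mitochondria. The genes were taken by symbol from a list, in which a name ending in the digit 2 marks the mitochondrial enzyme. All 36 were among the 20325 genes of the files, and all 36 passed the filter on low counts that left 11048 genes for testing. Pre-iPSCs are partially reprogrammed cells; lines pre2-2 and pre3 derive from fibroblasts of OG2 transgenic mice on a mixed 129SVJ, C57B6 and CBA background, OG2 being a GFP reporter under the Pou5f1 promoter. At passage 10 each line was either not transfected or transfected with control siRNA or with Tet1 siRNA (siTet1), Tet1 being a dioxygenase that oxidises 5-methylcytosine. All 6 cultures, the untransfected ones included, were in mES medium with LIF and received vitamin C at 50 µg/ml. By the series text vitamin C was added at 16 h and RNA was taken another 32 h on; by the sample descriptions RNA was taken at 48 h, of which 36 h in vitamin C. Some labels read fibroblasts rather than pre-iPSCs, and the treatment label of both siTet1 samples reads Tet in place of Tet1; no animal age is stated. Each combination gave 1 library, so a treatment has 2 libraries, 1 from each line, and each line stands for 1 line only.

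A synthetase joins an amino acid to its matching tRNA, the step at which the genetic code is read into protein. The cytosolic enzymes supply ribosomes that translate nuclear messages, and 8 of them (Dars, Eprs, Iars, Kars, Lars, Mars, Qars and Rars) sit in the multisynthetase complex held together by Aimp1, Aimp2 and Eef1e1. The mitochondrial enzymes are made from nuclear genes, imported, and serve the small set of messages encoded by mitochondrial DNA. Gars and Kars encode the enzymes of both compartments, Eprs joins the glutamyl and prolyl activities in 1 protein, and Farsa and Farsb encode the subunits of the cytosolic phenylalanyl enzyme. Many cytosolic synthetase genes are known targets of ATF4, a transcription factor of the amino acid response, which acts through DNA elements containing TGATGNAA.

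That element was searched for on either strand in 300-base promoter windows, from 250 bases before to 50 bases after each start, of the RefSeq sequences on GRCm38.p6. A window was found for 27 of the 36 genes. It held the element in 5 of 13 cytosolic genes (38.5%) and in 0 of 14 mitochondrial genes (0%), against 4.51% of 27025 genes and 3.97% of 32851 windows. Among 24 genes of the amino acid response, 22 had a window and 7 of these held the element (31.8%), among them Asns, Trib3 and Chac1. The other 8 cytosolic windows lacked it too, and the difference between the classes was not tested. The 5 cytosolic matches are shown as the members whose promoter holds the element; capitals mark the element, which in Gars, Iars, Aars and Tars reads as its reverse complement and in Yars reads toward the gene.
Gars, chr6:55037931-55038000, plus strand: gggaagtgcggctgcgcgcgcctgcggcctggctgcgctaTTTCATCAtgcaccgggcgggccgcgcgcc
Iars, chr13:49682097-49682144, plus strand: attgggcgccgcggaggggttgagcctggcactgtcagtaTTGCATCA
Yars, chr4:129189866-129189913, plus strand: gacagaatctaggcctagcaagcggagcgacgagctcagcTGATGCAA
Aars, chr8:111033690-111033777, plus strand: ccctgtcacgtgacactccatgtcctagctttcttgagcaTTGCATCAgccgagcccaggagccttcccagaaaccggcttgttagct
Tars, chr15:11399659-11399713, minus strand: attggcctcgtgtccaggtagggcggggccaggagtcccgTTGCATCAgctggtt
The matches begin 30 bases before the start in Gars, 112 before it in Aars and 15 before it in Tars, and at base 8 after it in Iars and base 4 after it in Yars. Aars has another match, TTTCATCA, at base 10 after the start. A match describes letters in a window and says nothing of binding; no binding data were analysed here.

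The libraries held 1868640 to 2582803 expected counts, an estimate of reads per gene, and 13506 to 14128 genes with a count. Tet1 was at 250 and 205 CPM (the count relative to the scaled library total) in untransfected pre2-2 and pre3. In the same order it was at 246 and 251 CPM with control siRNA and at 154 and 159 CPM with siTet1. Pluripotency markers summed to 2653 to 3367 TPM (the share of transcripts, per length) in pre2-2 and 9831 to 10886 TPM in pre3. The sum does not describe each marker. The log2 difference of pre3 over pre2-2 was positive for 3 of the 6 tested and negative for 3, from -0.95 to 2.45 (Pou5f1). Of the 10 markers 6 exceeded 1 TPM in every library, and Nanog, Esrrb and Lin28a were at 0 in at least 1. Fibroblast markers summed to 705 to 1768 TPM in pre2-2 and 336 to 489 TPM in pre3; 10 of 12 exceeded 1 TPM in every library and Lum was at 0 in at least 1. By treatment the fibroblast sum was 336 to 705 TPM untransfected, 438 to 1768 TPM with control siRNA and 489 to 1484 TPM with siTet1.

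Cytosolic synthetase messages were the more abundant class in every library. Per length, in TPM, the class median was 168, 153 and 138 in pre2-2 (untransfected, control siRNA, siTet1) and 139, 152 and 145 in pre3, while the mitochondrial median was 23.9, 21.5 and 21.5 and then 22.9, 25.8 and 27.2. The ratio of the medians was 7.04, 7.12 and 6.42 in pre2-2 and 6.05, 5.91 and 5.33 in pre3. The lines did not overlap in this ratio, pre2-2 being above pre3, although an exact permutation test of 3 libraries against 3 cannot give a p below 0.1. All 20 cytosolic genes lay above the median of the tested genes, 26.6 to 30.1 TPM, in each library, and 5 to 8 of the 16 mitochondrial genes did. Between 14 and 15 mitochondrial genes lay below the lowest cytosolic gene, the exceptions being among the highest mitochondrial members.

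**Figure D1:**
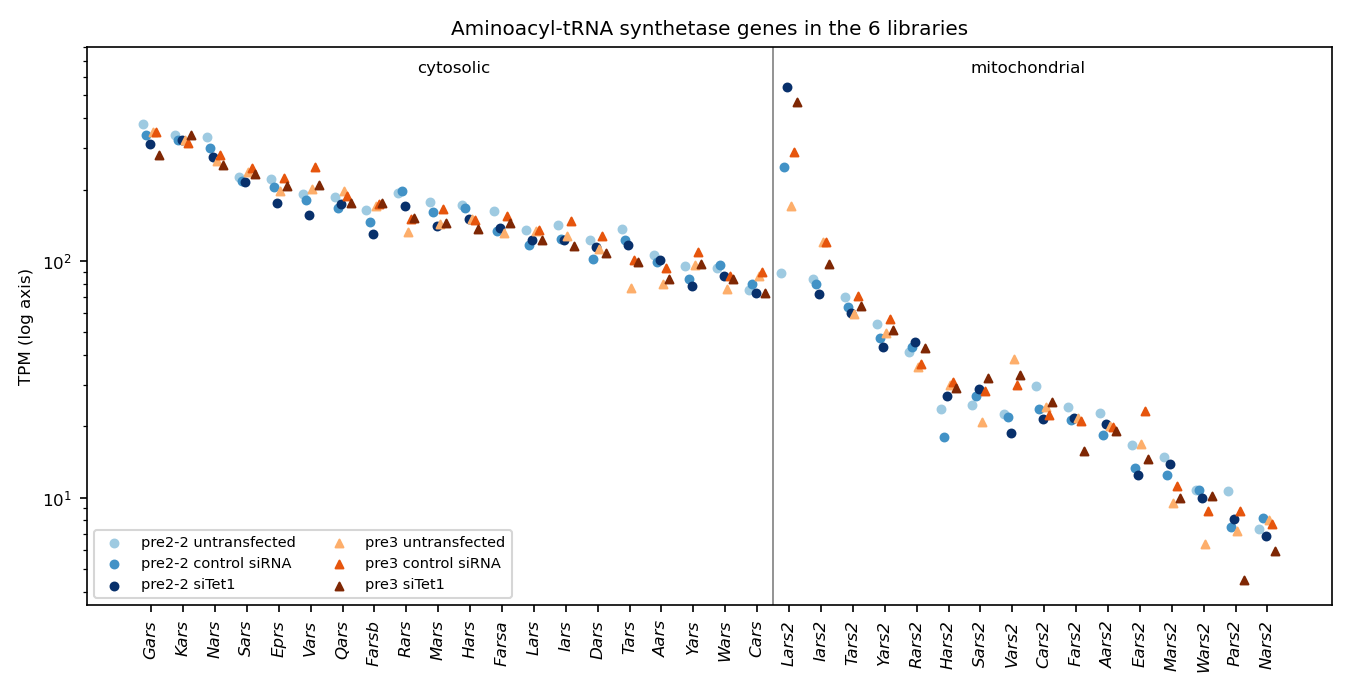
Level of the 36 synthetase genes in TPM on a log axis; each point is 1 library, circles for pre2-2 and triangles for pre3, with darker shades from untransfected to control siRNA to siTet1. Cytosolic genes, left of the line, lie between 72.8 and 380 TPM, and most mitochondrial genes lie below them; Lars2 spreads from 89.0 to 540 TPM.

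Glycyl and lysyl enzymes, whose genes serve both compartments, had the highest cytosolic messages. Gars was at 380, 341 and 311 TPM in pre2-2 and 351, 349 and 280 TPM in pre3, and Kars at 340, 325 and 324 TPM and then 325, 315 and 340 TPM. Kars varied least of all members, its highest library being 1.08 times its lowest. At the other end, Cars, the cysteinyl enzyme, was at 75.4, 80.0 and 72.8 TPM in pre2-2 and 86.3, 89.8 and 72.8 TPM in pre3. Wars, the tryptophanyl enzyme, which interferon induces, was at 93.6, 96.3 and 86.6 TPM and 76.3, 86.5 and 83.8 TPM. The ranges of Cars and Wars overlapped, as did those of Gars and Kars, so the order within each of these neighbours does not exceed the spread between libraries. The highest library of a cytosolic gene was a median of 1.27 times its lowest, from 1.08 to 1.77 (Tars).

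Among mitochondrial enzymes Lars2 (leucyl) had the highest median, 269 TPM, and Iars2 (isoleucyl) the next, with 83.6, 79.9 and 72.6 TPM in pre2-2 and 120, 120 and 96.5 TPM in pre3. Tars2 (threonyl), Yars2 (tyrosyl) and Rars2 (arginyl) followed, with medians of 64.2, 50.1 and 42.0 TPM. Nars2 (asparaginyl) and Pars2 (prolyl) were the lowest; Nars2 was at 7.35, 8.21 and 6.87 TPM in pre2-2 and 8.04, 7.71 and 5.97 TPM in pre3, and Pars2 at 10.7, 7.51 and 8.14 TPM and 7.19, 8.78 and 4.50 TPM. Those 2 genes overlapped in level, and Pars2 rests on 11.8 to 32.4 counts a library. The other 9 mitochondrial genes had medians of at most 27.9 TPM (Hars2). The highest library of a mitochondrial gene was a median of 1.55 times its lowest, from 1.18 (Tars2) to 6.07 (Lars2), or 1.53 without Lars2; counts are smaller in this class, which limits its precision.

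By amino acid, 15 cytosolic and mitochondrial enzymes could be set side by side, with Eprs used for both glutamate and proline. In 14 of the 15 the cytosolic message was the higher in 6 of 6 libraries. Asparagine had the widest ratio, Nars over Nars2 having a median of 38.2 (32.9 to 45.2), and proline followed, Eprs over Pars2 at 26.3 (20.8 to 45.8). Methionine was at 13.6 (10.1 to 15.1) and valine at 8.25 (5.28 to 8.56). The narrowest of the 14 were tyrosine at 1.85 (1.76 to 1.94), threonine at 1.72 (1.29 to 1.94) and isoleucine at 1.39 (1.06 to 1.70). The lines did not overlap in the ratios of histidine, threonine and isoleucine, where pre2-2 was above pre3, nor in those of methionine and tyrosine, where it was below. In CPM of single genes, the lines did not overlap for 18.8% of all genes with pre3 higher and 18.2% with pre3 lower. No such share was worked out for ratios, so this does not set these amino acids apart.

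Leucine was the exception. Lars, the cytosolic leucyl enzyme and a subunit of the multisynthetase complex, stayed between 117 and 135 TPM, and the ratio of Lars to Lars2 was 1.51, 0.471 and 0.227 in pre2-2 and 0.784, 0.470 and 0.263 in pre3. It was above 1 in 1 library, untransfected pre2-2. In each line it was highest without transfection and lowest with siTet1.

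**Figure D2:**
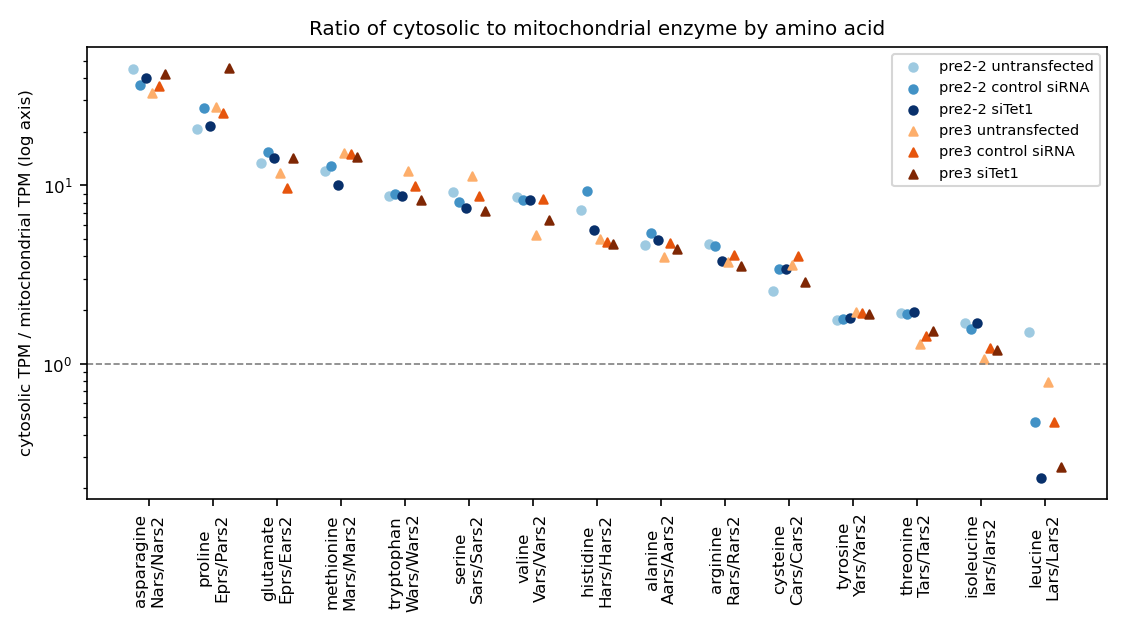
Ratio of cytosolic to mitochondrial TPM for 15 amino acids on a log axis; each point is 1 library, circles for pre2-2 and triangles for pre3, and the dashed line marks a ratio of 1. Ratios run from 45.8 for proline down to 0.227 for leucine, the amino acid whose points fall below 1.

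The main question of the series was what siTet1 changes against control siRNA. Of the 36 synthetase genes, 1 passed the threshold (adjusted p under 0.05) and was higher, the mitochondrial Lars2; 1.58% of all genes tested passed, 1.15% higher and 0.434% lower. No cytosolic gene passed; 2 of the 20, Gars (-0.23 on the log2 scale, SE 0.11) and Vars (-0.24, SE 0.11), had an unadjusted p under 0.05, each with an adjusted p of 0.448 in edgeR's quasi-likelihood test, where 10.8% of all genes reached that unadjusted level. DESeq2 called 0 synthetase genes and limma called Lars2. The log2 difference of cytosolic genes had a median of -0.11 and was negative for 19 of 20, from -0.24 to 0.05, beside a median of 0.00 and 5452 negative of 11048 over all genes. The mitochondrial median was -0.01, negative for 9 of 16. Within each line the cytosolic median was -0.13, negative for 15 of 20 in pre2-2 and 17 of 20 in pre3. Complex members (median -0.09, 8 genes) and the cytosolic genes outside it (-0.13, 12 genes) had like values, and the scaffold genes Aimp1, Aimp2 and Eef1e1 were at -0.08, -0.05 and -0.37, none of which passed.

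Lars2 had 438, 910 and 2113 expected counts in pre2-2 (untransfected, control siRNA, siTet1) and 683, 1043 and 1697 in pre3. Those were 89.0, 249 and 540 TPM in pre2-2 and 171, 288 and 467 TPM in pre3. Both siTet1 libraries lay above both control siRNA libraries, and these above both untransfected libraries; groups that do not overlap were found for 25.4% of all genes between siTet1 and control siRNA and for 21.3% between control siRNA and untransfected cells. With siTet1 the gene was 1.89-fold control siRNA (log2 0.92, SE 0.15, adjusted p = 0.000889 in edgeR's quasi-likelihood test), by 1.1 in pre2-2 and 0.70 in pre3. Among the 36 genes its TPM ranked 20 in untransfected pre2-2, 8 in untransfected pre3 and 1 in both siTet1 libraries. It made up 16.3, 37.4 and 56.8% of the summed mitochondrial TPM in pre2-2 and 26.8, 36.8 and 50.7% in pre3. Without it that sum was 457, 417 and 411 TPM in pre2-2 and 468, 495 and 454 TPM in pre3; control siRNA overlapped the other treatments, and both siTet1 libraries lay below both untransfected ones. Leaving out the siTet1 library of pre2-2 ended the Lars2 call (0.52, adjusted p = 0.252), as did DESeq2 (0.92, adjusted p = 1.00) and a model lacking the cell line (0.90, adjusted p = 1.00).

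**Figure D3:**
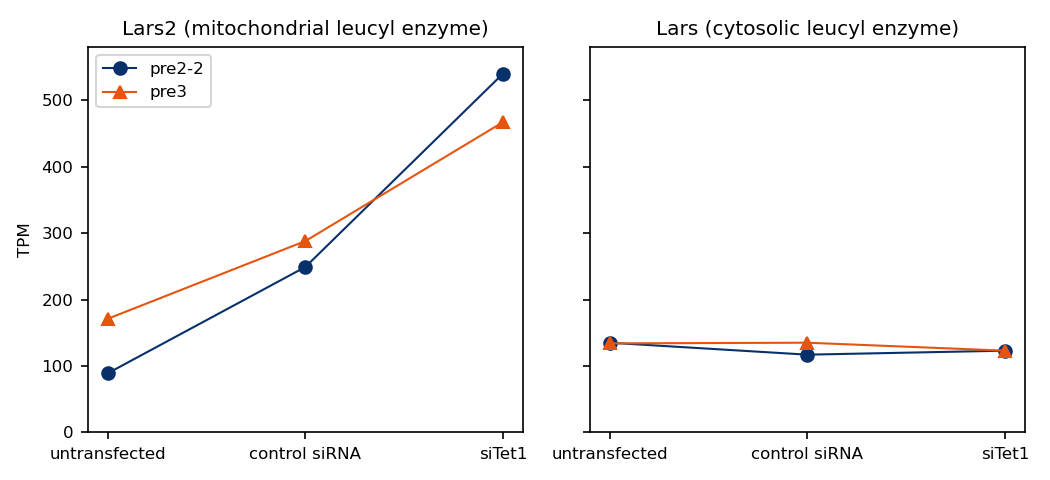
TPM of Lars2 (left) and of the cytosolic Lars (right) by treatment; each point is 1 library and lines join the libraries of a cell line, pre2-2 as circles and pre3 as triangles. Lars2 runs from 89.0 to 540 TPM in pre2-2 and from 171 to 467 TPM in pre3, while Lars stays at 117 to 135 TPM.

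Lars2 carries a stretch after its coding part that other transcripts resemble. In the Gencode M21 transcript of 3894 bases, whose first base after the coding part is 2906, bases 3163 to 3349 matched the transcripts AA474408 (94.8% identity over 97 bases and 96% over 50) and Gm15564 (98.6% over 72 bases). Of 4527 distinct 50-base words of the gene, 3 (0.0663%) were shared exactly with Gm15564. The levels of those transcripts were not analysed here, and the files give no position of reads within a gene. As background, the end of the Lars2 message is also known for a resemblance to ribosomal RNA, and no ribosomal RNA sequence was compared here. The part of these stretches in the Lars2 values, at every comparison given, was not tested.

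Transfection itself was compared as control siRNA against untransfected cells of the same line. Lars2 was again the synthetase gene that passed, 1 of 36 and higher; 1.48% of all genes passed, 1.38% higher and 0.0996% lower. It was 2.02-fold higher (log2 1.01, SE 0.16, adjusted p = 0.000328 in edgeR's quasi-likelihood test), by 1.43 in pre2-2 and 0.66 in pre3. No cytosolic gene had even an unadjusted p under 0.05, as 9.20% of all genes had. The cytosolic median was -0.07 and the mitochondrial -0.08. By line the cytosolic median was -0.20 in pre2-2, negative for 19 of 20, and 0.09 in pre3, negative for 9 of 20. The size for Lars2 was 0.56 without the untransfected pre2-2 library and 1.54 without the untransfected pre3 library, and the call ended with DESeq2 (1.02, adjusted p = 1.00) or when the model left out the line (0.97, adjusted p = 1.00).

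Other genes moved with the same treatments. Of 9 interferon response genes tested, 6 rose with control siRNA (1.38% of all genes did) and 7 fell with siTet1 against control siRNA (0.434% of all genes did); DESeq2 called 3 and 1. Eif2ak2, the double-stranded RNA sensor that phosphorylates eIF2, rose by 0.97 with control siRNA (adjusted p = 0.00369) and fell by 0.73 with siTet1 against it (adjusted p = 0.0433, both edgeR); DESeq2 called it in neither comparison. Of 11 fibroblast markers tested, 5 rose with control siRNA and 8 rose with siTet1 against untransfected cells (4.92% of all genes did), where DESeq2 called 0 and 3. Of 6 pluripotency markers tested, 2 rose with siTet1 against control siRNA (1.15% of all genes did) and 2 against untransfected cells (4.92% did). DESeq2 called 2 and 1 of these markers. The part of these other genes in the synthetase values was not tested. The interferon-induced Wars was at 0.06 (adjusted p = 0.958) with control siRNA and -0.12 (adjusted p = 0.839) with siTet1 against it in edgeR's test.

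With siTet1 against untransfected cells, 2 of 36 synthetase genes passed, Lars2 higher and Gars lower; 6.55% of all genes passed, 4.92% higher and 1.63% lower. Lars2 was 3.82-fold higher (log2 1.93, SE 0.16, adjusted p = 1.34e-08 in edgeR's quasi-likelihood test), by 2.53 in pre2-2 and 1.36 in pre3. Here as elsewhere the SE is worked back from the test statistic and does not measure the spread between the lines. This comparison shares libraries with both above, so it is no further evidence for them. Its call held with DESeq2 (1.94, adjusted p = 0.000894) and ended without the cell line (1.86, adjusted p = 0.991).

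Gars was at 447 and 442 CPM in the untransfected libraries of pre2-2 and pre3 and at 351 and 333 CPM with siTet1. Control siRNA, at 388 and 415 CPM, lay between them in each line, and no groups overlapped, which held for 29.8% of all genes between siTet1 and untransfected cells. The difference was -0.38 (0.770-fold, SE 0.11, adjusted p = 0.0349 in edgeR's test), by -0.35 in pre2-2 and -0.41 in pre3. The size was -0.33 to -0.43 when each library was left out, but the call ended without either control siRNA library (adjusted p = 0.0920 and 0.109) or either siTet1 library (adjusted p = 0.311 and 0.329). It also ended, at a size of -0.38, with DESeq2 (adjusted p = 0.377), from the 4 libraries compared (adjusted p = 0.102) and when the model left out the line (adjusted p = 0.991). The cytosolic median was -0.20, negative for 20 of 20, and the mitochondrial median -0.20, negative for 12 of 16, beside 0.01 over all genes. By line the cytosolic median was -0.26 in pre2-2, negative for 20 of 20, and -0.07 in pre3, negative for 16 of 20. Without the untransfected pre3 library 8 synthetase genes passed, Lars2 higher and Eprs, Farsb, Gars, Iars, Mars, Nars and Vars lower, as did 1900 of all genes.

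**Figure D4:**
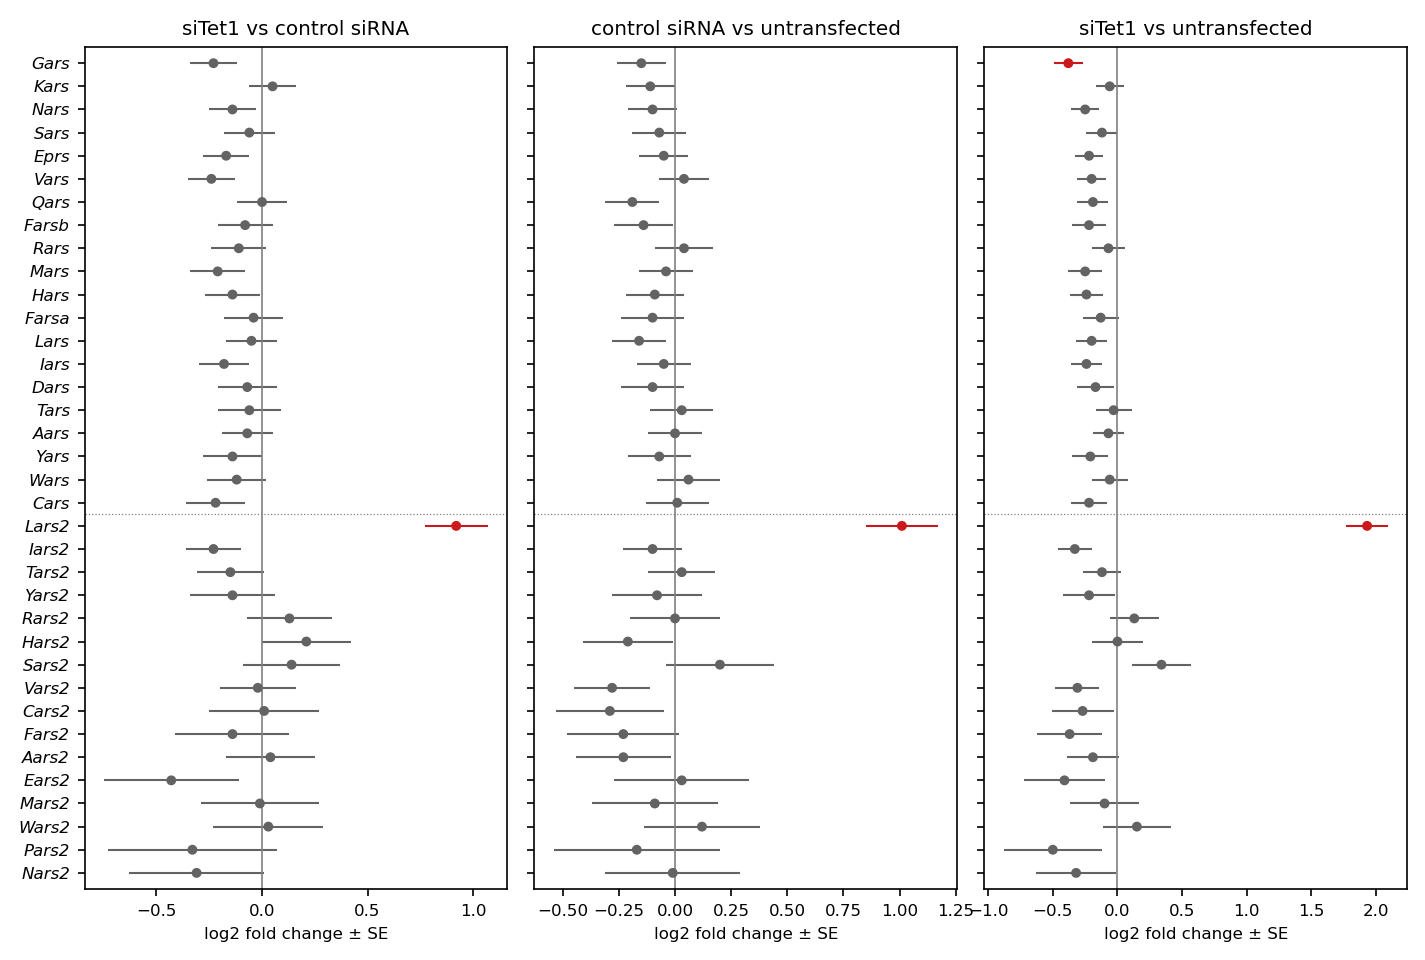
Log2 fold change with its SE for each of the 36 genes in the treatment comparisons, from the fit to 6 libraries (2 per treatment); red marks an adjusted p under 0.05, the dotted line divides cytosolic (above) from mitochondrial genes, and the panels have different scales. Lars2 stands at 0.92, 1.01 and 1.93 and the other genes lie between -0.50 and 0.34. The SE does not measure the spread between the lines.

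Genes of the amino acid response, among which ATF4 targets are many, were followed beside the synthetases. Against control siRNA, 1 of 24 passed with siTet1, beside 1.58% of all genes, 0.434% lower. It was Psat1 of serine synthesis, which fell by 0.67 (adjusted p = 0.00256, edgeR), and the median of the 24 was -0.09. Against untransfected cells 5 of 24 passed, all lower, with a median of -0.22, beside 1.63% of all genes lower; DESeq2 called 2 of the 24. Psat1 fell by 0.97 (adjusted p = 1.43e-05), Shmt2, which makes one-carbon units from serine in mitochondria, by 0.63 (adjusted p = 0.00137), Asns, the asparagine synthetase, by 0.54 (adjusted p = 0.0131), and Mthfd2, of the mitochondrial folate cycle, by 0.55 (adjusted p = 0.0331). Atf4 itself was at 317, 279 and 275 TPM in pre2-2 and 334, 404 and 300 TPM in pre3 and did not pass (-0.25, adjusted p = 0.267, edgeR). With control siRNA against untransfected cells 0 of the 24 passed, beside 1.48% of all genes, and the median was -0.19. Asns was at -0.46 there (adjusted p = 0.0972, edgeR) and at -0.08 with siTet1 against control siRNA. In the same order Psat1 was at -0.31 and -0.67, Shmt2 at -0.31 and -0.32, and Mthfd2 at -0.32 and -0.23. The translation factors of mitochondria (9 genes) and the elongation factors of the cytosol (5 genes) gave 0 calls with siTet1 against either control group in edgeR and DESeq2. At an unadjusted p under 0.05 in edgeR, 3 of the 5 cytosolic factors were lower against untransfected cells, as were 835 of all 11048 genes. There limma called 2 of the 5, beside 864 of all genes in either direction. With siTet1 against either control group, 0 of the mitochondrial factors reached that unadjusted level.

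More synthetase genes passed between the lines than between treatments, as was so over all genes. A line has 3 libraries and a treatment 2, so these counts are not of like power. Between pre3 and pre2-2, 9 of 36 passed, which is 25.0%, beside 30.2% of all genes. Of these 7 were higher in pre3 and 2 lower, beside 14.4% and 15.8% of all genes. Medians were 0.07 for cytosolic, 0.05 for mitochondrial and 0.00 for all genes. Of the cytosolic genes 3 were higher and 2 lower, and of the mitochondrial genes 4 were higher. Except for Lars2, the lines did not overlap in CPM in the genes that passed. Aars and Mars2 (pre3 lower) and Sars (pre3 higher) did not overlap either, without passing. Over all genes, passed or not, such separation was found with pre3 higher for 18.8% and with pre3 lower for 18.2%. The genes that passed were picked by the same values, so their separation is no further evidence.

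Iars2 had the smallest adjusted p. It was at 146, 135 and 121 CPM in pre2-2 (untransfected, control siRNA, siTet1) and 224, 210 and 170 CPM in pre3, each pre3 library above each pre2-2 library (0.59, 1.5-fold, SE 0.10, adjusted p = 1e-04 in edgeR's quasi-likelihood test). Vars2, the mitochondrial valyl enzyme, was at 49.0, 46.1 and 39.3 CPM in pre2-2 and 89.2, 65.6 and 72.3 CPM in pre3, again without overlap (0.76, 1.69-fold, SE 0.14, adjusted p = 0.000146). Its cytosolic partner Vars was higher too, at 400, 363 and 310 CPM in pre2-2 and 450, 523 and 440 CPM in pre3 (0.40, 1.32-fold, SE 0.09, adjusted p = 0.00184). Leaving out 1 library leaves its treatment with 1 line, and that treatment then adds nothing to the line difference. The 2 runs that leave out a library of the same treatment are therefore nearly the same check. The calls of Iars2 and Vars2 held under every alternative run, with sizes of 0.55 to 0.63 and 0.70 to 0.89 when each library was left out. That of Vars ended without either control siRNA library (0.33, adjusted p = 0.0825, and 0.35, adjusted p = 0.0862).

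Smaller differences were found for the other members that passed. Hars2, the mitochondrial histidyl enzyme, was at 35.7, 26.3 and 38.9 CPM in pre2-2 and 48.2, 46.9 and 44.2 CPM in pre3 (0.47, SE 0.17, adjusted p = 0.0338 in edgeR's test). Farsb, the beta subunit of the cytosolic phenylalanyl enzyme, was at 172, 148 and 130 CPM and 192, 184 and 186 CPM (0.32, SE 0.11, adjusted p = 0.0231). Its partner subunit Farsa was at 0.07 and did not pass. Yars, the cytosolic tyrosyl enzyme, was at 135, 114 and 106 CPM in pre2-2 and 145, 155 and 138 CPM in pre3 (0.31, SE 0.11, adjusted p = 0.0398). In these genes the highest pre2-2 library lay just below the lowest pre3 library. Tars, the cytosolic threonyl enzyme, went the other way, at 176, 154 and 146 CPM in pre2-2 and 107, 132 and 129 CPM in pre3 (-0.37, SE 0.12, adjusted p = 0.0172). Rars, the arginyl enzyme of the complex, was likewise lower, at 202, 201 and 170 CPM and 148, 158 and 161 CPM (-0.29, SE 0.11, adjusted p = 0.0383).

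Each of the calls of Hars2, Farsb, Yars, Tars and Rars ended with DESeq2, at adjusted p-values of 0.292, 0.195, 0.278, 0.154 and 0.234. The call of Hars2 ended without either control siRNA library (0.31 and 0.33), those of Farsb and Yars without a control siRNA or siTet1 library (0.23 to 0.35), and that of Tars without either untransfected library (-0.19) or without control siRNA in pre3 (-0.43, adjusted p = 0.0538). Rars lost its call without either untransfected (-0.21) or control siRNA library (-0.27 and -0.25). Lars2 was 1.28-fold higher in pre3 (0.36, SE 0.13, adjusted p = 0.0338, edgeR), but the lines overlapped. Its difference was 0.06 without either untransfected library (adjusted p = 0.582 and 0.574), and its call also ended with DESeq2 (0.38, adjusted p = 0.555) and limma (0.30, adjusted p = 0.0720).

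**Figure D5:**
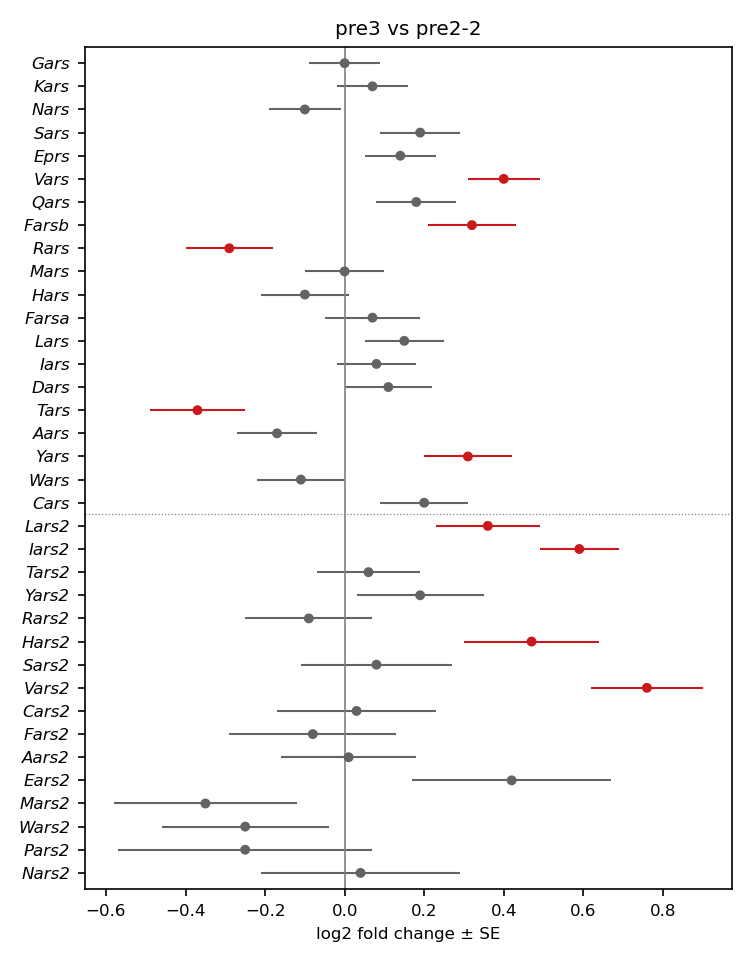
Log2 fold change of pre3 over pre2-2 with its SE for the 36 genes, from the fit to 6 libraries (3 per line); red marks an adjusted p under 0.05 and the dotted line divides cytosolic (above) from mitochondrial genes. Vars2 (0.76) and Iars2 (0.59) lie farthest to the right, and Tars (-0.37) farthest to the left among the genes marked.

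Related genes were set beside these line differences. Of 24 amino acid response genes 13 were higher in pre3 and 2 lower, beside 14.4% and 15.8% of all genes. Their median was 0.35, and DESeq2 called 8. Atf4 was among the higher (0.32, adjusted p = 0.0172, edgeR), as was Asns (0.55, adjusted p = 0.000370), but in both the lines overlapped in CPM. The lower genes were Trib3 (-0.66, adjusted p = 0.00907, edgeR), without overlap, and Slc7a1 (-0.35, adjusted p = 0.0231), with overlap. Tarsl2, a threonyl enzyme related to Tars, was higher in pre3, at 1.39 (adjusted p = 8.09e-06, edgeR). Tarsl2 had 8.40, 8.32 and 9.32 TPM in pre2-2 and 25.6, 17.1 and 21.7 TPM in pre3, below Tars in every library. Of 11 fibroblast markers 10 were lower in pre3 (DESeq2 called 9), and of 9 interferon response genes 7 were lower, with a median of -1.65 (DESeq2 called 6). Of 6 pluripotency markers 3 were higher and 2 lower (DESeq2 called 5), with a median of 0.13, from -0.95 to 2.45 (Pou5f1). The part of these lists in the synthetase differences was not tested.

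Whether the treatments acted differently in the lines was asked by interaction terms, and 0 of 36 synthetase genes passed for line by siTet1 (0% of all genes) or for line by transfection (0.00905%). DESeq2 and limma also gave 0 in each. At an unadjusted p under 0.05 there were 0 and 1 of 36, the 1 being Tars for transfection (0.53, SE 0.21, edgeR adjusted p = 0.884), beside 2.44 and 5.46% of all genes. The siTet1 term compared siTet1 with control siRNA and untransfected libraries pooled, and the transfection term pooled control siRNA with siTet1 libraries. For Lars2 the terms were -0.66 (SE 0.59, adjusted p = 1.00) and -1.03 (SE 0.57, adjusted p = 0.884). Lars2 differed within these pools, by 1.01 between control siRNA and untransfected cells and by 0.92 between siTet1 and control siRNA. Such differences enter the error, so for Lars2 the terms cannot decide whether the lines differed. A term for siTet1 against control siRNA alone was not fitted. Without the pre2-2 control siRNA library the siTet1 term for Lars2 was -1.53 and passed (adjusted p = 0.0428).

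Several members share sequence with other genes, which the counting could split. Iars2 shared 31% of its 50-base words with other genes, chiefly Rab3gap2 on the other strand, Aars 20.1% with Exosc6 on its own strand, Cars2 17.4% with Naxd and Farsb 8.56% with Sgpp2. Hars and Hars2 lie head to head and shared 7.36 and 4.38% of their words with each other, and Vars2 shared 3.61% with the antisense Gm20483. Strandedness is not stated, so reads of such partners on opposite strands could not be told apart. Of the members that passed in any comparison of the main fit, Gars, Vars, Rars and Yars shared none. Lars, with several other members, shared none either.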

How the data were processed

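RNA-seq libraries (TruSeq RNA kit, Trizol, per the labels' protocols) came from 6 cultures. The authors deposited, per gene, an expected count (RSEM's estimate of reads) and a fraction (share of transcripts), made with RSEM 1.1.21 on mm9, per the submitters' processing notes. Read length and aligner settings are not given in the sources used here. A series-wide TPM table was left out, since it repeats the fractions and 1 column name matches no sample. TPM is the deposited fraction, rescaled; between 18.7 and 21.4% of expected counts were not whole (tolerance 0.005).

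The rounded expected counts went into edgeR 4.0.16 (R 4.3.3): filterByExpr (minimum count 10), TMM scaling, and the quasi-likelihood test, two-sided, in a model of cell line and treatment over all 6 libraries, with Benjamini-Hochberg adjustment over 11048 genes and a threshold of 0.05. The model of line and treatment leaves 2 residual degrees of freedom. Each SE is the absolute log2 fold change divided by the square root of the test's F statistic. It draws on an estimate of spread shared across genes and does not measure the spread between the lines. Interaction models held line, siTet1 or transfection, and their product. The siTet1 model pooled control siRNA with untransfected libraries, and the transfection model pooled control siRNA with siTet1 libraries. DESeq2 1.42.0, limma 3.58.1, RLE factors, no filter, each library left out, the 4 libraries compared, pooled controls and no line were alternatives; log2(TPM + 1) used a pseudocount of 1. Scripts were tested on simulated data. Each treatment p-value rests on 1 library from each of 2 lines; the labels do not say whether libraries of a line came from separate cultures, and an exact permutation test of 2 against 2 cannot go below 0.333. A floor of 3 counts is 1.16 to 1.61 CPM, covering counting error only. Libraries of the same line correlated at 0.953 to 0.975 in log2 CPM across genes and those of different lines at 0.883 to 0.938, so the line was kept as the block.

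Genes named are all those called, the 2 highest and 2 lowest of each class, and up to 4 called per related list and direction. Asns and Atf4 in the line comparison, and Atf4 and the scaffold genes in the treatment comparisons, were added after their values were seen. So were members given to describe a class and the listed genes with the element. The values of Psat1, Shmt2, Asns and Mthfd2 in the comparisons where they did not pass were also added later. Results for some other aminoacylation genes are not reported here. The members and lists were chosen with earlier results of these data known. Shared words and the Lars2 matches (blastn 2.17.0, E-value 1e-10) came from Gencode M21 transcripts, a later build than mm9.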

Additional observations from a re-analysis of the deposited data

How the results depend on the processing

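The number of synthetase genes called was kept with RLE factors and without a count filter in all 6 comparisons; scaling moved the median of all genes by at most 0.0405 (log2). Main counts of 1, 1, 2 and 9 (siTet1 against control siRNA, control siRNA against none, siTet1 against none, and between lines) became 0, 0, 1 and 3 with DESeq2. Without the cell line as the replicate block the first 3 became 0, as did those of all genes; with only the 4 libraries compared and the replicate block they were 2 (Vars lower, Lars2), 1 and 1. Leaving out each library gave 0 to 2, 1 to 1, 1 to 8 and 3 to 7 genes, and 0 to 1 for line by siTet1; that term could not be fitted without an siTet1 library, nor line by transfection without an untransfected one. The ratio of class medians, 6.24 as a median over libraries, was 7.08 in CPM, which is not per length, and 6.49 without Lars2, an alternative chosen after seeing the data. Genes called among all genes, 175, 164, 724 and 3335, were 24, 32, 87 and 1429 with DESeq2; without a filter the first 2 were 292 and 259, and siTet1 against control siRNA gave 613 from 4 libraries and 114 with pooled controls. The log2 fold changes of genes called under any setting kept their sign under the alternatives run; class medians and the other members were not recomputed. The causes were not tested. Mitochondrial members with few counts (11.8 to 35.0 per library for Pars2 and Nars2) are the least precise.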
